A study of Mus musculus with 15 samples.

Results

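Whether the effect of the E-OEX genotype differed between the glands and the lumen of the mouse uterus was tested gene by gene, as the interaction (E-OEX minus wild type in glandular epithelium) minus (E-OEX minus wild type in luminal epithelium). The fit used 12 of the 15 RNA sequencing libraries of the series, 3 in each of 4 groups: luminal epithelium (lumen) and glandular epithelium (gland) of animals labelled WT, and lumen and gland of animals labelled as overexpressing Notch1 and titled E-OEX, all at day 4. The other 3 libraries, titled U-OEx, are of lumen alone and were not used. The promoter or Cre line behind the overexpression, the meaning of E-OEX, the event from which day 4 is counted and the number of animals per library are not given in the sources used here. Because the labels do not say that the 3 libraries of a group came from separate animals, p-values measure the spread between these libraries, which may be technical. The genes tested were the 2933 listed in both the wild-type and the E-OEX tables, which are 45.7% of the 6414 wild-type entries and 59.8% of the 4903 E-OEX entries. All 2933 passed a filter on low values (a mean scaled read count of at least 1 over the 12 libraries), and 157 of them are unannotated entries without a gene symbol. Whether such an entry stands for the same transcript in both tables is not given in the sources used here. Both tables hold genes already chosen for a difference between gland and lumen: the absolute log2 ratio of the group means was at least 0.998 for every gene in both genotypes. A gene that differed between the epithelia in a single genotype is therefore not among the genes tested, and no gland-lumen difference here can shrink to near 0. Notch1 itself is not in the shared list, so the overexpressed gene could not serve as a check of the labels.

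Uterine glands grow from the luminal epithelium, the layer that meets the embryo, and secrete factors into the uterine cavity, among them the cytokine Lif, without which mouse embryos do not implant. Notch receptors are cell surface proteins that are cut when a neighbouring cell presents a Delta-like or Jagged ligand, and the released intracellular part joins the DNA-binding protein RBPJ to switch on target genes such as those of the Hes and Hey repressor families.

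The values are read counts that the authors divided by 1 factor per library, called scaled reads below. Groups said below to overlap or lie apart are compared in scaled reads, and these factors may differ in scale between the genotypes. Tests within an epithelium therefore used reads of the shared genes rescaled together. The shared genes held 1782057 to 1887719 reads in wild-type lumen, 1686696 to 1942029 in wild-type gland, 1243402 to 1627382 in E-OEX lumen and 2060418 to 2429426 in E-OEX gland. The 3 luminal markers used here summed to 54261, 29001 and 47278 scaled reads in wild-type lumen against 833, 389 and 579 in wild-type gland, and the 6 glandular markers to 27253, 21965 and 30111 in wild-type gland against 45.6, 94.2 and 68.2 in wild-type lumen, as the labels have it. The gland libraries of both genotypes also carried markers of other cells: 24 markers of stroma, smooth muscle, blood vessels, leukocytes and red cells summed to 58829, 110821 and 46644 scaled reads in wild-type gland and 99559.9, 116969 and 113963 in E-OEX gland, against 911, 8679.8 and 3040.0 and 2449, 1108 and 976 in the lumen libraries. The stroma list gave most of this, with 50840, 100636 and 34391 in wild-type gland. Of the 24 markers, 23 were higher in gland in both genotypes, against 1912 of all 2933 genes in each genotype. The exception was Cd68, the leukocyte marker tested, with 219, 278 and 221 scaled reads in wild-type lumen against 62.3, 75.8 and 45.0 in wild-type gland. In bulk libraries such as these, fewer cells of a type and less RNA per cell cannot be told apart. The lumen groups varied more between libraries than the gland groups, with a median SD of 0.673 and 0.711 (log2, wild type and E-OEX) against 0.346 and 0.478.

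The genotype effect differed between gland and lumen for 315 of the 2933 genes, 10.7% of those tested (limma, adjusted p under 0.05). It was more positive in the gland for 171 genes (5.83%) and more positive in the lumen for 144 (4.91%), and 703 genes had an unadjusted p under 0.05. The absolute log2 interaction of the 315 genes was at least 1.31, with a median of 3.37. For 305 of the 315, and for 480 of all 2933 genes (16.4%), the 9 gland minus lumen differences of one genotype did not overlap the 9 of the other. A positive interaction depends on the scale: the median over all genes was 0.33 on the deposited scale and 0.07 after the reads of the shared genes were rescaled together (TMM), and the share of positive calls was 54.3% of 315 against 43.9% of 269, and 42.9% of 350 with quantile normalization. A value given below can be read against those medians. Leaving out 1 library gave between 179 and 449 genes, the highest without wild-type lumen replicate 1. The count fell by over 1.5 times without wild-type lumen replicate 3 (192), wild-type gland replicate 1 (192), replicate 2 (209) or replicate 3 (179), or E-OEX gland replicate 2 (202) or replicate 3 (202).

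The called genes fell into 3 forms by what happened to the gap between gland and lumen. In 92 genes the gap reversed, so that the epithelium with the higher value in wild type had the lower value in E-OEX; 47 of these were higher in wild-type lumen and 45 in wild-type gland. In 154 the gap kept its sign and narrowed, 98 of them higher in gland and 56 higher in lumen. In 69 it widened, and 68 of these were higher in gland in both genotypes. In each genotype 1912 of all 2933 genes were higher in gland. Of all 2933 genes, 106 reversed, 1504 narrowed and 1323 widened, so 92 of the 106 genes with a reversed gap passed the test. A reversal here spans the selection threshold of both tables, so it entails a large interaction. Without 1 library, 62 to 99 genes reversed, 83 to 216 narrowed and 31 to 188 widened, with the 188 found without wild-type lumen replicate 1 and the 31 without wild-type gland replicate 1. The plot of the gland minus lumen difference in each genotype shows these forms.

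**Figure D1:**
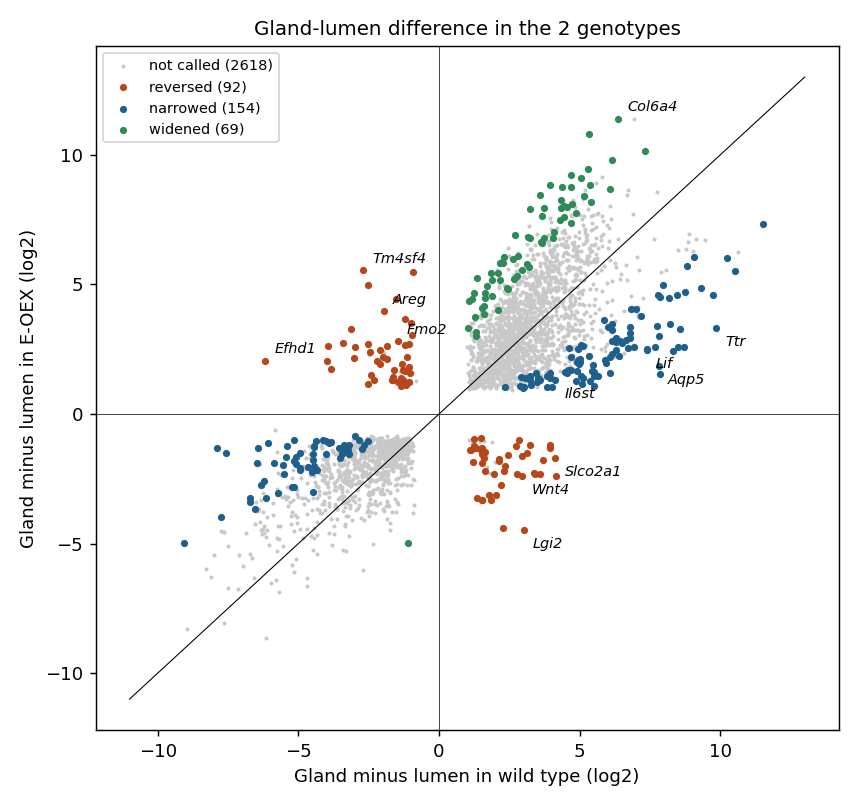
Gland minus lumen difference (mean log2 of scaled reads + 1) in E-OEX against wild type, 1 point per gene, for the 2933 shared genes, with the 315 called genes coloured by form and the line of equal difference drawn. The reversed genes (92) sit in the upper left and lower right quadrants, the narrowed genes (154) between the line and the horizontal axis, and all but 1 of the 69 widened genes above the line at the upper right; the empty bands around 0 come from the selection of the deposited lists.

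Among the 14 tested genes of the Notch pathway list (of 40), 3 passed the interaction test, the ligand gene Dll4, the target Hey2 and the target Heyl, which is 21.4% of the list against 10.7% of all genes, and the median interaction of the 14 was -0.17 against 0.33 over all genes. Dll4 (ENSMUSG00000027314), which encodes the Delta-like 4 ligand, read 594, 284 and 269 scaled reads in wild-type lumen, 122, 129 and 201 in wild-type gland, 132, 171 and 153 in E-OEX lumen and 243, 408 and 527 in E-OEX gland. In scaled reads the E-OEX libraries lay below wild type in every lumen comparison and above it in every gland comparison. The gene thus went from higher in lumen to higher in gland (log2 interaction 2.58, SE 0.59, limma adjusted p = 0.0148). On reads rescaled together, the lumen effect of -1.38 passed (limma adjusted p = 0.0293) and the gland effect of 0.94 did not (limma adjusted p = 0.179). Hey2 (ENSMUSG00000019789), a transcriptional repressor and Notch target, read 276, 147 and 274 scaled reads in wild-type lumen, 73.0, 70.1 and 75.3 in wild-type gland, 265, 151 and 742 in E-OEX lumen and 597, 1293 and 1322 in E-OEX gland. In the gland all 3 E-OEX libraries lay far above wild type, while the lumen groups overlapped (log2 interaction 3.30, SE 0.76, limma adjusted p = 0.0148). Heyl (ENSMUSG00000032744), the third Hey family member, read 3.11, 5.12 and 3.35 scaled reads in wild-type lumen, 105, 189 and 183 in wild-type gland, 123, 207 and 50.7 in E-OEX lumen and 335, 385 and 647 in E-OEX gland. In scaled reads both epithelia lay higher in E-OEX without overlap, the lumen by more. The gap narrowed from 5.02 to 1.99 on the log2 scale (log2 interaction -3.02, SE 0.75, limma adjusted p = 0.021). On reads rescaled together the gland effect of 1.10 did not pass (limma adjusted p = 0.332). The interaction of Heyl missed the threshold in 5 of the 12 fits that left out a library, with an adjusted p of up to 0.0666. Hey1, the remaining family member, read 31.1, 105 and 163 scaled reads in wild-type lumen, 328, 317 and 502 in wild-type gland, 1104, 1832 and 1139.8 in E-OEX lumen and 3259.8, 3029 and 3075 in E-OEX gland. It was higher in E-OEX in both epithelia, by 3.86 in lumen and 2.65 in gland on the log2 scale, and its interaction of -0.94 had an interval from -2.46 to 0.57 (limma adjusted p = 0.462). The 3 Hey genes thus had interactions of different sign and size, and the differences between them were not tested.

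The promoter window of Hey2 is shown because Hey2 is the Notch target with the positive interaction, and RBPJ is known to bind the letters GTGGGAA. The window runs from 250 bases before to 10 bases after the RefSeq transcription start (GRCm38.p6, minus strand, chr10:30842774-30843033, 5′ to 3′ on the gene's strand), and the capitals mark matches to GTGGGAA on either strand, spelled TTCCCAC on the other.
Hey2: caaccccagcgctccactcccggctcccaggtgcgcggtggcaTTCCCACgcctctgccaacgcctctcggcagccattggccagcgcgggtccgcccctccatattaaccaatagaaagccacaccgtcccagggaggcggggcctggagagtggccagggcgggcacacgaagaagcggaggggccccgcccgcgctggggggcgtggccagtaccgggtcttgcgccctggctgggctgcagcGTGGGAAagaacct
The window holds 2 matches, 1 beginning 207 bases before the start and 1 lying across it, from 4 bases before. Of the 32851 windows in the RefSeq promoter table, which reach further past the start than the stretch shown, 6.38% hold a match on either strand. A match was found for 19 of the 210 genes with a called interaction that have a window (9.05%) and for 151 of the 1880 tested genes that have one (8.03%). A match describes letters in the window and is no evidence of binding. Hey1 and Heyl were not matched in the table.

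The other Notch pathway genes tested did not pass. The receptor gene Notch4 had an interaction of 1.09 and the ligand gene Dll1 of 0.67. Among modulators, the glycosyltransferase gene Mfng stood at 1.65 and its relative Lfng at -0.15, the Deltex genes Dtx1 and Dtx3 at -0.36 and -0.99, and Numbl, a relative of the inhibitor Numb, at 0.35. Of the remaining genes listed as targets, Myc stood at -0.18, the cell cycle inhibitor gene Cdkn1a at -0.24 and the transcription factor gene Sox9 at -1.19. Cdkn1a read 14.5, 58.4 and 33.5 scaled reads in wild-type lumen, 141, 242 and 164 in wild-type gland, 290.3, 233 and 88.5 in E-OEX lumen and 871, 1136 and 669.8 in E-OEX gland, higher in E-OEX by 2.40 in lumen and 1.89 in gland on the log2 scale. On reads rescaled together the lumen effect of Cdkn1a passed (limma adjusted p = 0.0195) and its gland effect did not (limma adjusted p = 0.0907). The interval of its interaction ran from -1.91 to 1.43. The sign of the small values of Lfng, Dtx1, Numbl, Myc and Cdkn1a changed when some single libraries were left out.

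**Figure D2:**
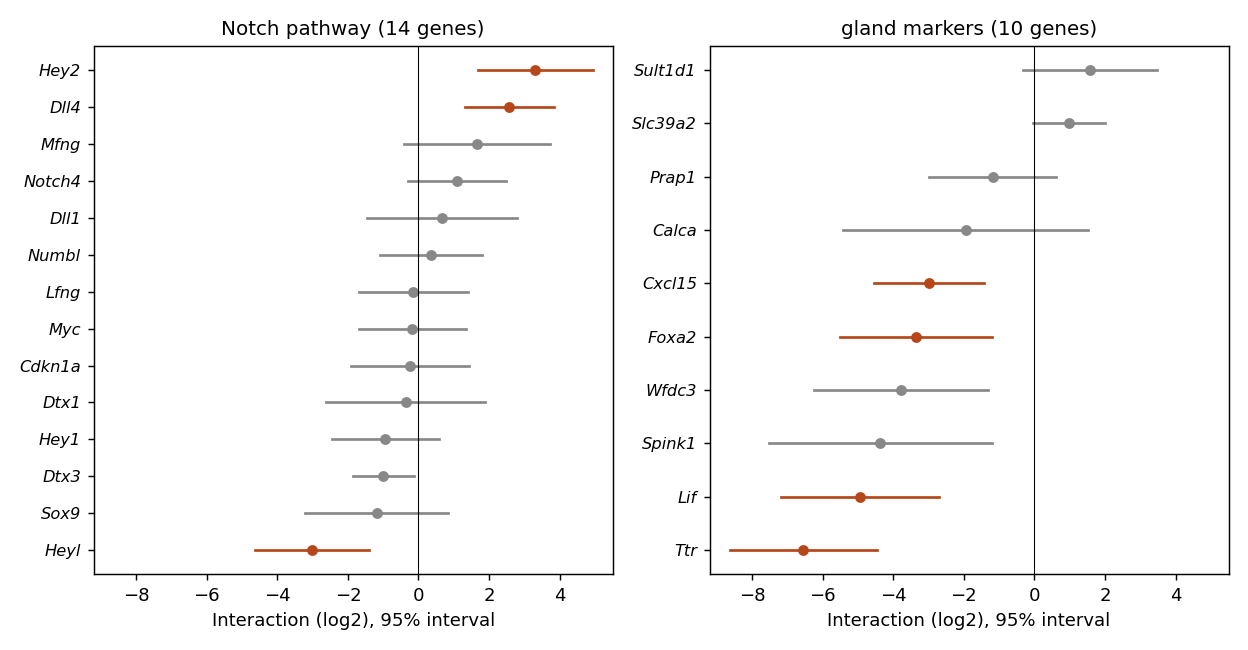
Log2 interaction (point) with its 95% interval from limma (line) for the 14 Notch pathway genes and the 10 gland marker genes tested; coloured genes passed the adjusted threshold, grey genes did not. Hey2 and Dll4 lie to the right of 0 and Heyl to the left, and the 4 gland genes that passed all lie to the left, from -2.99 to -6.54.

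Of the 10 tested genes of the gland marker list (of 14), 4 passed (40% against 10.7% of all genes), all with a negative interaction (4.91% of all genes) and a narrowed gap, and the median interaction of the 10 was -3.18 against 0.33 over all genes. Lif (ENSMUSG00000034394), the gland cytokine needed for implantation, read 20.7, 53.3 and 42.5 scaled reads in wild-type lumen, 6391, 4698 and 8110.2 in wild-type gland, 519, 147 and 36.7 in E-OEX lumen and 519, 1249.7 and 745 in E-OEX gland. Every E-OEX gland library lay below every wild-type gland library, while the lumen libraries overlapped (log2 interaction -4.93, SE 1.04, limma adjusted p = 0.0097). The gap between gland and lumen was 7.39 on the log2 scale in wild type and 2.46 in E-OEX. Il6st (ENSMUSG00000021756), which is on the receptivity list and encodes gp130, the shared receptor subunit through which Lif signals, read 2428, 3981 and 3208 scaled reads in wild-type lumen, 49888, 52224 and 64131 in wild-type gland, 3161, 2769 and 4592 in E-OEX lumen and 7319.9, 9215 and 9473 in E-OEX gland. Its gland level was lower in all 3 E-OEX libraries and its lumen level overlapped between genotypes (log2 interaction -2.80, SE 0.39, limma adjusted p = 0.00113). E-OEX minus wild type was -3.08 in gland and -0.02 in lumen on the log2 scale.

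Ttr (ENSMUSG00000061808), transthyretin, a carrier of thyroid hormone and of vitamin A with its binding protein, read 0, 2.05 and 0 scaled reads in wild-type lumen, 1463, 1435 and 1156 in wild-type gland, 1.83, 0 and 3.24 in E-OEX lumen and 21.0, 42.5 and 11.2 in E-OEX gland. Wild-type gland lay far above E-OEX gland, and both lumen groups held 3 reads or fewer per library, the detection floor used here, so no ratio between the genotypes can be given for the lumen (log2 interaction -6.54 on the log2(value + 1) scale, limma adjusted p = 0.00152). Cxcl15 (ENSMUSG00000029375), a secreted chemokine, read 9.32, 7.17 and 5.59 scaled reads in wild-type lumen, 4776, 4045 and 4334 in wild-type gland, 63.0, 10.9 and 18.3 in E-OEX lumen and 1582, 1904 and 1456 in E-OEX gland. In scaled reads it was lower in E-OEX gland and slightly higher in E-OEX lumen, without overlap in either (log2 interaction -2.99, SE 0.72, limma adjusted p = 0.0182). Without a library, 4 of 12 fits put this adjusted p at or past 0.05, up to 0.0542. On reads rescaled together, neither the lumen effect of 1.47 (limma adjusted p = 0.0763) nor the gland effect of -1.82 (limma adjusted p = 0.0541) passed. Foxa2, the transcription factor on which gland development depends, read 14.5, 4.10 and 12.3 scaled reads in wild-type lumen, 2227, 2584 and 2282 in wild-type gland, 426, 41.8 and 52.9 in E-OEX lumen and 2260.4, 1941 and 2593 in E-OEX gland. Its gland values overlapped between genotypes and its lumen values did not, and the size of the E-OEX lumen mean rests on replicate 1. Its interaction of -3.36 passed narrowly (limma adjusted p = 0.0477) and missed the threshold in 8 of 12 fits without a library, with an adjusted p of up to 0.0995.

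Of the gland genes that did not pass, the trypsin inhibitor gene Spink1 read 1.04, 17.4 and 6.71 scaled reads in wild-type lumen, 10612, 8261 and 12770.1 in wild-type gland, 0, 0 and 0 in E-OEX lumen and 9.01, 275 and 161 in E-OEX gland. E-OEX gland lay far below wild-type gland, and all 3 E-OEX lumen libraries were at 0 (log2 interaction -4.36, limma adjusted p = 0.0767). Wfdc3, of the whey acidic protein family, had an interaction of -3.77 (adjusted p = 0.0515), the calcitonin gene Calca of -1.95 and the secreted proline-rich protein gene Prap1 of -1.18. With edgeR on recovered reads the value was 0.16 for Spink1 and 2.80 for Calca, and with pseudocount 0.1 it was 0.40 for Prap1. The sulfotransferase gene Sult1d1 and the zinc transporter gene Slc39a2 had positive values of 1.58 and 0.98. Without 1 library, between 2 (without wild-type lumen replicate 3) and 5 of the 10 gland genes passed. The summed level of the 6 glandular epithelium markers was 27253, 21965 and 30111 in wild-type gland and 4405, 5969 and 5195 in E-OEX gland. The sum is made of Foxa2, Lif, Cxcl15, Spink1, Ttr and Calca, whose own interactions are given above, so it is no separate measure of gland content. In gland Foxa2 overlapped between genotypes and the rest lay lower in E-OEX. The part of gland content in the interactions of single gland genes was not tested.

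Of the 11 tested genes of the receptivity list 9 had a positive interaction, 81.8% against 61% of all genes. Of the 11, 5 passed (45.5% against 10.7% of all genes), Areg, Egr1, Lpar3 and Ptgs1 with positive values and Il6st with a negative one, and the median of the 11 was 2.75. Areg (ENSMUSG00000029378), amphiregulin, a ligand of the EGF receptor that progesterone induces in the uterine epithelium, read 1187, 1254 and 539 scaled reads in wild-type lumen, 278, 281 and 176 in wild-type gland, 19.2, 2.72 and 18.3 in E-OEX lumen and 97.1, 341 and 163 in E-OEX gland. The E-OEX lumen libraries lay far below all the others, and the gland groups overlapped (log2 interaction 5.91, SE 0.93, limma adjusted p = 0.00199). Lpar3 (ENSMUSG00000036832), a lysophosphatidic acid receptor needed for normal implantation, read 6313, 6184 and 7939.8 scaled reads in wild-type lumen, 273, 195 and 202 in wild-type gland, 1209.5, 819 and 3003 in E-OEX lumen and 229, 446 and 378 in E-OEX gland. It was lower in all 3 E-OEX lumen libraries, stayed highest in lumen in both genotypes and overlapped in gland (log2 interaction 2.85, SE 0.61, limma adjusted p = 0.0109). Ptgs1, the prostaglandin synthase COX-1, read 3513, 2077 and 2352 scaled reads in wild-type lumen, 322, 251 and 244 in wild-type gland, 2047, 2026 and 4276 in E-OEX lumen and 1185, 927 and 921 in E-OEX gland. Here the gland libraries differed, with E-OEX above wild type, and the lumen groups overlapped; the interaction of 1.87 (limma adjusted p = 0.0279) missed the threshold in 8 of 12 fits without a library. Of the 3 luminal markers used here, Lpar3 passed. The calcium-binding protein gene Calb1 (3.10, adjusted p = 0.064) and the Wnt ligand gene Wnt7a (0.65) did not pass.

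The largest interactions belonged to genes whose gap reversed. Efhd1 (ENSMUSG00000026255), a mitochondrial calcium-binding protein, read 1702, 2936 and 2768 scaled reads in wild-type lumen, 38.9, 25.6 and 33.7 in wild-type gland, 9.13, 6.36 and 24.8 in E-OEX lumen and 38.1, 52.9 and 65.6 in E-OEX gland. Wild-type lumen stood alone at a high level and the other 3 groups were low (log2 interaction 8.23, SE 0.70, limma adjusted p = 7.22e-05). Tm4sf4 (ENSMUSG00000027801), a 4-transmembrane protein of the L6 family, read 91.2, 260.1 and 205 scaled reads in wild-type lumen, 33.1, 26.5 and 18.2 in wild-type gland, 7.30, 0 and 7.56 in E-OEX lumen and 95.1, 252 and 291 in E-OEX gland. In scaled reads lumen values were lower and gland values higher in E-OEX, without overlap in either (log2 interaction 8.24, SE 1.12, limma adjusted p = 0.00113). On reads rescaled together the gland effect of Tm4sf4, 2.47, did not pass (limma adjusted p = 0.0961). Its relative Tm4sf1 had 4872, 6444 and 5175 scaled reads in wild-type lumen, 321, 299 and 463 in wild-type gland, 263, 27.2 and 328 in E-OEX lumen and 591, 896 and 1069 in E-OEX gland, again with the E-OEX lumen far below wild type (log2 interaction 6.56). The transcription factor gene Zbtb16 had 1232, 367 and 1115 scaled reads in wild-type lumen, 460.3, 335 and 465 in wild-type gland, 40.2, 1.82 and 52.9 in E-OEX lumen and 266, 1305 and 1529 in E-OEX gland. Its gland groups overlapped and its lumen groups did not (log2 interaction 6.40, limma adjusted p = 0.0105). Positive interactions over 6 on the log2 scale were also found for Nptx2, a neuronal pentraxin (7.49), Ntrk3, the neurotrophin-3 receptor (6.41), and 2 genes named for striated muscle. Of these, the troponin T gene Tnnt2 had 6.04, and the myosin light chain gene Myl3 read 74.6, 39.9 and 45.8 scaled reads in wild-type lumen, 4.87, 2.84 and 4.33 in wild-type gland, 0, 0 and 0 in E-OEX lumen and 4.01, 6.90 and 6.56 in E-OEX gland. All 3 E-OEX lumen libraries of Myl3 were at 0, so the interaction was at least 4.74 (log2 ratio of means with 3 reads put in for that group).

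In the opposite direction, Lgi2 (ENSMUSG00000039252), a secreted leucine-rich repeat protein, read 7.25, 9.22 and 1.12 scaled reads in wild-type lumen, 35.0, 78.7 and 32.0 in wild-type gland, 4579.8, 3522 and 831 in E-OEX lumen and 176, 70.1 and 95.6 in E-OEX gland. E-OEX lumen was by far the highest group and the gland groups overlapped (log2 interaction -7.49, SE 1.04, limma adjusted p = 0.00113). Slco2a1 (ENSMUSG00000032548), a prostaglandin transporter, read 139, 73.7 and 49.2 scaled reads in wild-type lumen, 1529, 1082 and 1735 in wild-type gland, 2931, 2123 and 3735 in E-OEX lumen and 868, 939 and 826 in E-OEX gland. The order of the epithelia was exchanged: E-OEX lumen lay above every gland library, whereas wild-type lumen lay below them all (log2 interaction -5.84, SE 0.54, limma adjusted p = 0.000101). Slc40a1, the iron exporter ferroportin, read 173, 57.4 and 77.1 scaled reads in wild-type lumen, 634, 659 and 566 in wild-type gland, 2197, 3216 and 1904 in E-OEX lumen and 1573, 802 and 818 in E-OEX gland. In scaled reads both epithelia lay higher in E-OEX without overlap, the lumen by more (log2 interaction -3.98, limma adjusted p = 0.00163). On reads rescaled together, E-OEX minus wild type was 4.54 in lumen and 0.31 in gland (log2). The gland effect did not pass (limma adjusted p = 0.819). Slc34a2, a sodium-phosphate cotransporter, read 3.11, 4.10 and 3.35 scaled reads in wild-type lumen, 59.4, 54.0 and 48.5 in wild-type gland, 3382, 713 and 235 in E-OEX lumen and 469.7, 98.9 and 99.3 in E-OEX gland, with a wide spread in E-OEX lumen (log2 interaction -5.91). The plot of scaled reads by library shows 12 of these genes.

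**Figure D3:**
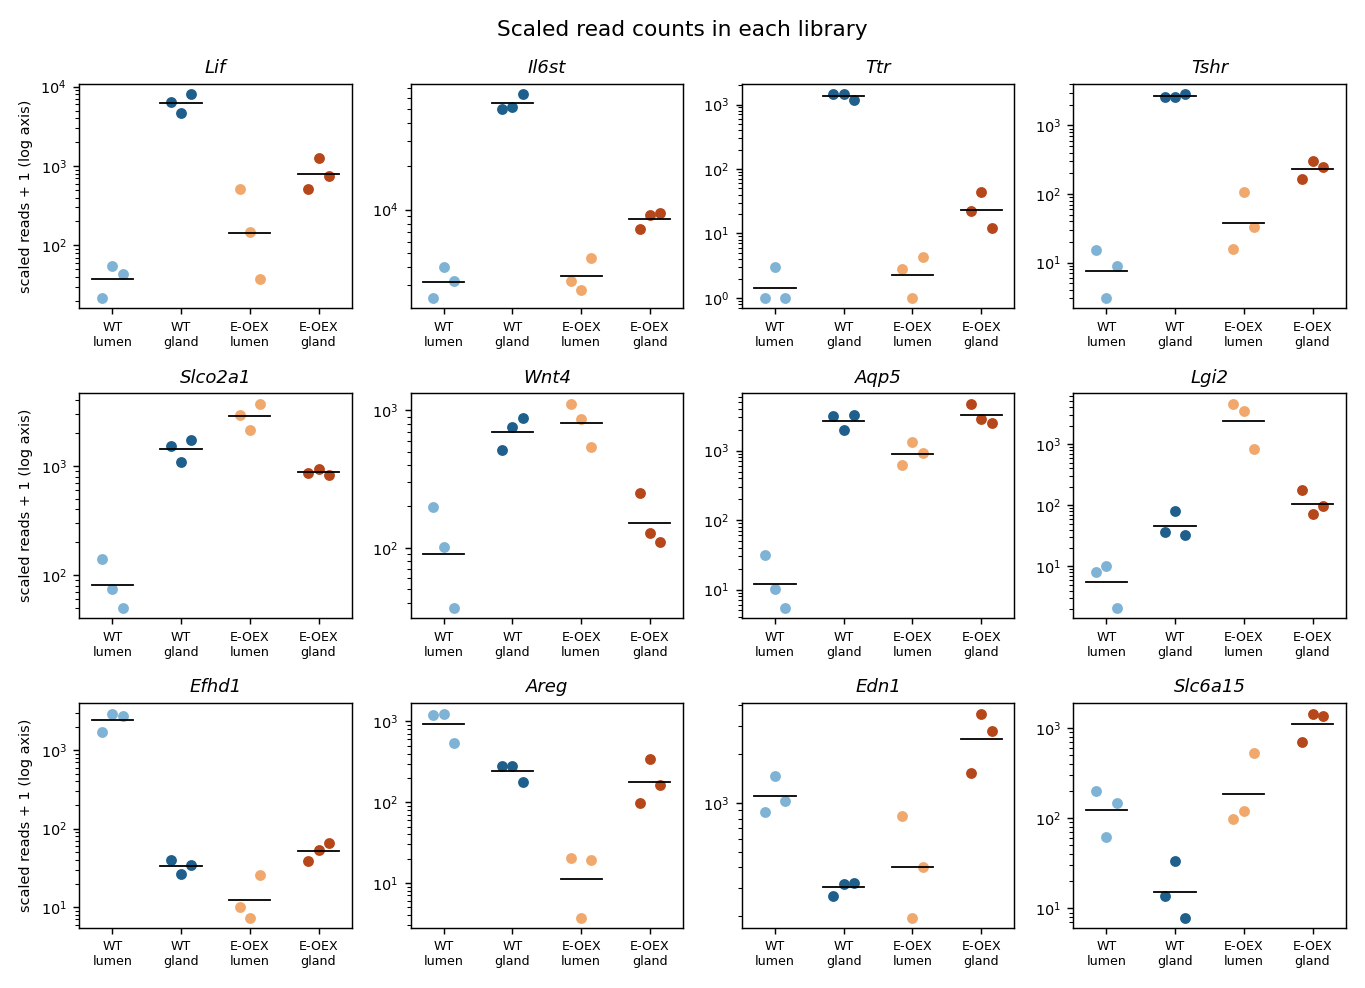
Scaled reads + 1 on a log axis for 12 named genes in each of the 12 libraries (points) with the mean of the log2 values (bar), by genotype and epithelium. The wild-type gland is highest for Lif, Il6st, Ttr and Tshr, the E-OEX lumen for Slco2a1 and Lgi2, the wild-type lumen for Efhd1 and Areg and the E-OEX gland for Edn1 and Slc6a15, while Wnt4 shows 2 low groups on the diagonal and Aqp5 a single low group, wild-type lumen.

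A subset changed in both epithelia in opposite directions. To place each effect, E-OEX was also compared with wild type within each epithelium, on reads rescaled together, in the same 12-library fit; 558 genes passed in lumen (19%), 278 of them higher (9.48%) and 280 lower (9.55%) in E-OEX, and 257 in gland (8.76%), 104 higher (3.55%) and 153 lower (5.22%). Of the 315 genes with an interaction, 18 passed in both with opposite signs, 13 higher in lumen and lower in gland and 5 the reverse; 16 of the 18 have a symbol. Which of the 2 sides passes depends on the spread assumed: with each epithelium fitted alone on its 6 libraries, 95 genes passed in lumen and 604 in gland, and of the 16 genes Fam20c alone passed in both. The interaction itself passed for all 16 in each of the 12 fits without a library and under every other setting tried that gave a value. The 16 were chosen for opposite effects in these same libraries, and a large interaction follows from that choice. Its passing is therefore no separate support for a change in both epithelia. Over the 315 genes the absolute effect was larger in lumen for 213, and the effects had opposite signs for 238. The 315 were chosen for a difference between the 2 effects, which favours opposite signs. The lumen groups also varied more between libraries, which favours larger lumen effects. Neither count is therefore a result about these genes.

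Wnt4 (ENSMUSG00000036856), a secreted Wnt ligand, read 196, 100.4 and 35.8 scaled reads in wild-type lumen, 511, 753 and 883 in wild-type gland, 1116, 868 and 539 in E-OEX lumen and 250.4, 128 and 109 in E-OEX gland. The E-OEX lumen and the wild-type gland were the high groups, and neither epithelium overlapped between genotypes (log2 interaction -5.36, SE 0.79, limma adjusted p = 0.00152). Fam20c (ENSMUSG00000025854), a kinase that phosphorylates secreted proteins, read 369.8, 162 and 171 scaled reads in wild-type lumen, 1719.7, 1630.3 and 2528 in wild-type gland, 2297, 2432 and 1810.1 in E-OEX lumen and 1287, 614 and 557 in E-OEX gland. The pattern was that of Wnt4, with lumen up by 3.17 and gland down, at -1.74, on the log2 scale (log2 interaction -4.64, SE 0.57, limma adjusted p = 0.000859). Tshr (ENSMUSG00000020963), the thyrotropin receptor, read 14.5, 2.05 and 7.82 scaled reads in wild-type lumen, 2587, 2628 and 2897 in wild-type gland, 14.6, 106 and 32.4 in E-OEX lumen and 166, 301 and 244 in E-OEX gland. Wild-type gland was far above all other groups, and E-OEX lumen lay above wild-type lumen, the nearest values of the lumen groups being less than 1 scaled read apart (log2 interaction -5.90, SE 0.96, limma adjusted p = 0.00227). The guidance ligand gene Sema3a (interaction -5.73), the glycosyltransferase family gene Galnt17 (-5.27), the mannosyltransferase gene Pigz (-5.16), the heparan sulfate sulfotransferase gene Hs3st6 (-4.48), the calcium-dependent kinase gene Camk4 (-3.88) and Tmem218 (-3.26) shared this direction. So did Gm13003 (-4.02) and Gm48832, whose 12 values did not exceed 6.81 scaled reads.

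Opposite to these, 5 genes were lower in E-OEX lumen and higher in E-OEX gland. Edn1 (ENSMUSG00000021367), the precursor of the vasoconstrictor endothelin-1, read 874, 1460.5 and 1029 scaled reads in wild-type lumen, 265, 317 and 322 in wild-type gland, 826, 195 and 404 in E-OEX lumen and 1520.3, 3557 and 2776 in E-OEX gland. Gland values lay above wild type without overlap, and every E-OEX lumen library lay below every wild-type lumen library (log2 interaction 4.48, SE 0.67, limma adjusted p = 0.00163). Plk2 (ENSMUSG00000021701), a polo-like kinase, read 1839.7, 3375 and 2555 scaled reads in wild-type lumen, 1123, 1251 and 1216 in wild-type gland, 1164, 529 and 934 in E-OEX lumen and 4308, 6309 and 5900.1 in E-OEX gland. Neither epithelium overlapped between genotypes (log2 interaction 3.78, SE 0.48, limma adjusted p = 0.000859). The calcium pump gene Atp2c2 had an interaction of 5.11, Tnnt2 of 6.04 and the smooth muscle gene Cnn1 of 3.93.

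**Figure D4:**
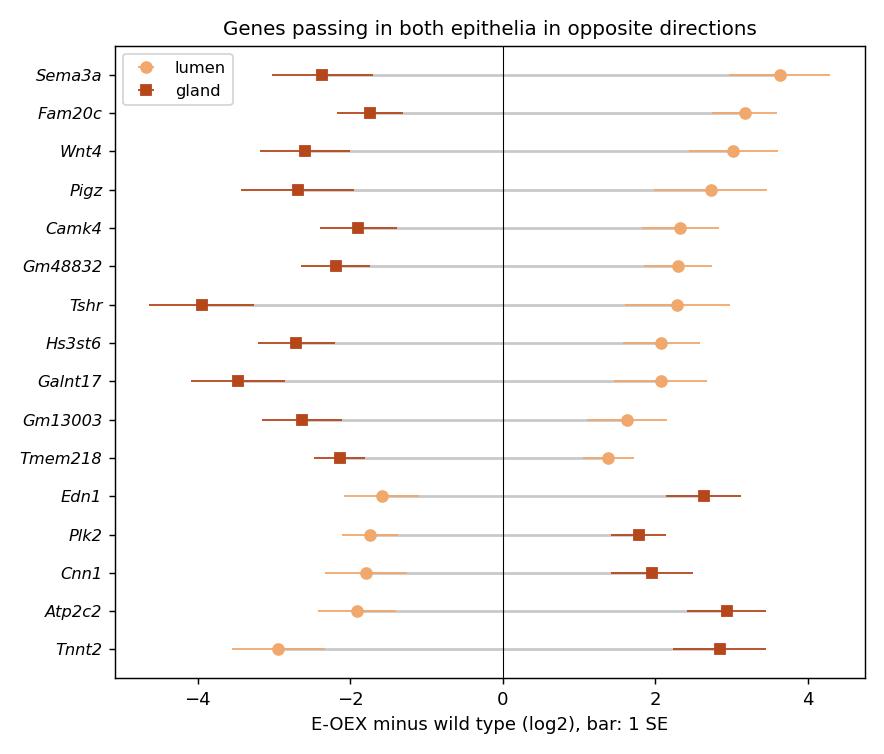
E-OEX minus wild type (log2 of rescaled reads + 1) in lumen (circles) and gland (squares) with 1 standard error, for the 16 genes with a symbol that passed in both epithelia in opposite directions. In 11 genes the lumen effect is to the right of 0 and the gland effect to the left, from Sema3a (3.63 and -2.36) to Tmem218 (1.38 and -2.14), and in 5 the order is the reverse.

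Wnt pathway genes other than Wnt4 included 1 more that passed, of 12 tested (2 of 12 passed in all, 16.7% against 10.7% of all genes). Fzd5 (ENSMUSG00000045005), a Wnt receptor, read 1521, 2191 and 2239.8 scaled reads in wild-type lumen, 636, 791 and 734 in wild-type gland, 183, 214 and 223 in E-OEX lumen and 365, 601 and 546 in E-OEX gland. In scaled reads it was lower in E-OEX in both epithelia without overlap, and by more in lumen (log2 interaction 2.70, SE 0.43, limma adjusted p = 0.00215). Wnt4 and Fzd5 thus had interactions of opposite sign. On reads rescaled together the gland effect of Fzd5, -0.94, did not pass (limma adjusted p = 0.0968). The ligand genes Wnt6, Wnt7a and Wnt7b did not pass.

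Of the genes that move solutes and water, 12 of 73 solute carrier genes passed (16.4% against 10.7% of all genes), 6 in each direction, with a median of 0.49. Of 50 ion and water channel genes 3 passed (6%), with a median of 0.69, and 8 did so without wild-type lumen replicate 1. Aqp5 (ENSMUSG00000044217), a water channel, read 30.0, 9.22 and 4.47 scaled reads in wild-type lumen, 3142, 1958 and 3234 in wild-type gland, 619.8, 1308 and 916 in E-OEX lumen and 4736, 2879 and 2485 in E-OEX gland. Wild-type lumen was the single low group and the gland groups overlapped, so that the ratio of gland to lumen means went from 191 to 3.55 (log2 interaction -5.98, SE 0.77, limma adjusted p = 0.000859). A second water channel gene, Aqp1, had the opposite sign. Aqp1 read 199.9, 455 and 183 scaled reads in wild-type lumen, 580.0, 424 and 898 in wild-type gland, 87.6, 34.5 and 23.7 in E-OEX lumen and 988, 1097 and 1151 in E-OEX gland, with E-OEX lumen lowest and the gap widened (log2 interaction 3.42, limma adjusted p = 0.00902). The neutral amino acid transporter gene Slc6a15 read 201, 60.4 and 146 scaled reads in wild-type lumen, 12.7, 32.2 and 6.92 in wild-type gland, 95.8, 119.9 and 529 in E-OEX lumen and 698, 1446 and 1361 in E-OEX gland. In gland it lay far higher in E-OEX, and in lumen the groups overlapped (log2 interaction 5.60, limma adjusted p = 0.00382). Slc5a3, an inositol transporter, went from higher in lumen to higher in gland (log2 interaction 2.89). Slc16a12 (3.99) missed the threshold in 10 of 12 fits without a library, as did the chloride channel accessory gene Clca3a2 (-6.67) in 5; the latter belongs to a family of close copies between which reads may have been split.

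Genes that were higher in lumen in both genotypes narrowed from either side. Cwh43 read 1822, 2916 and 2447 scaled reads in wild-type lumen, 29.2, 1.90 and 10.4 in wild-type gland, 111, 21.8 and 585 in E-OEX lumen and 40.1, 49.4 and 45.9 in E-OEX gland. It was lower in E-OEX lumen without overlap, with 1 E-OEX lumen library well above the other 2 (log2 interaction 6.56, limma adjusted p = 0.0101). Sox5, a transcription factor, read 2473, 1477 and 2444 scaled reads in wild-type lumen, 63.3, 83.4 and 56.2 in wild-type gland, 399, 283 and 1452 in E-OEX lumen and 115, 233 and 263 in E-OEX gland. In scaled reads lumen values were lower and gland values higher in E-OEX, without overlap (log2 interaction 3.43). On reads rescaled together the gland effect of 1.11 did not pass (limma adjusted p = 0.175). Lama3, a laminin chain of the basement membrane, had lumen values of 8563, 2944 and 5245 in wild type and 1320.0, 1051 and 1076 in E-OEX (log2 interaction 2.78). From the gland side, Krt19 (ENSMUSG00000020911), a keratin of simple epithelia, read 24918, 12378 and 17229 scaled reads in wild-type lumen, 1997, 1887 and 1295 in wild-type gland, 26535, 21432 and 31041 in E-OEX lumen and 10063, 10556 and 8487 in E-OEX gland. Gland libraries lay higher in E-OEX and the lumen groups overlapped (log2 interaction 1.93, SE 0.42, limma adjusted p = 0.0118). Of the other general epithelium markers tested, Cdh1 (0.15) and Cldn7 (1.03) did not pass. Their gland effects on reads rescaled together were -0.70 and -0.25, against 2.11 for Krt19, and only that of Krt19 passed. The whey acidic protein gene Wfdc2 had the same form, with gland values of 1249.6, 1085 and 1069 in wild type and 6466, 6063 and 4363 in E-OEX (log2 interaction 2.18). With quantile normalization Krt19 and Wfdc2 did not pass.

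Of the metabolising enzyme genes 5 of 39 passed (12.8%), near the 10.7% of all genes, with a median of 0.31; without wild-type gland replicate 3 it was 3. Fmo2 (ENSMUSG00000040170), a flavin monooxygenase, read 410.2, 284 and 424 scaled reads in wild-type lumen, 135, 189.6 and 88.2 in wild-type gland, 1913, 1015 and 2891 in E-OEX lumen and 8653, 15304 and 15113 in E-OEX gland. It was higher in E-OEX in both epithelia, and by far more in gland, where it went from the lower to the higher of the 2 (log2 interaction 4.30, SE 0.60, limma adjusted p = 0.00113). Of the cytochrome P450 genes, Cyp3a25 read 0, 1.02 and 0 scaled reads in wild-type lumen, 420.4, 429 and 589 in wild-type gland, 0, 0 and 0 in E-OEX lumen and 4.01, 11.5 and 14.1 in E-OEX gland. The gland level was lower in E-OEX and both lumen groups were at the detection floor (log2 interaction -5.26 on the log2(value + 1) scale); Cyp3a16 (-4.37) and Cyp3a59 (-4.20) had the same form. None of these 3 passed with edgeR or DESeq2 on the recovered reads, and the Cyp3a genes are close copies between which reads may have been split. Hsd17b14, a hydroxysteroid dehydrogenase, had lumen values of 2.07, 3.07 and 0 in wild type and 179.8, 36.3 and 234 in E-OEX (log2 interaction -4.28 on the log2(value + 1) scale). Its wild-type lumen group was at the detection floor. The interaction did not pass with pseudocount 0.1 (limma adjusted p = 0.0603) or without wild-type gland replicate 3 (limma adjusted p = 0.0545).

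All 24 tested markers of cells other than epithelium had a positive interaction, against 61% of all genes. Of the 24, 5 passed (20.8% against 10.7% of all genes), and in these 5 the gap was widened (2.35% of all genes passed with a widened gap); the median was 1.89 against 0.33 over all genes. Smooth muscle markers summed to 2734, 4850.3 and 4878 scaled reads in wild-type gland, 17496, 15902 and 14149.8 in E-OEX gland, 108, 230.4 and 81.6 in wild-type lumen and 66.6, 19.1 and 15.1 in E-OEX lumen. E-OEX gland was thus above wild-type gland and E-OEX lumen below wild-type lumen in all 3 libraries each. Stromal markers summed to 384, 7834 and 2515 in wild-type lumen and 2016, 826 and 398 in E-OEX lumen, with wild-type lumen replicate 1 below all others. Without that library 14 of the 24 markers passed and their median was 3.19; without wild-type lumen replicate 2, the highest, 3 passed and the median was 1.34. No tested marker was at 0 in any gland library, and Actg2, Emcn and Rgs5 were at the detection floor in E-OEX lumen.

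**Figure D5:**
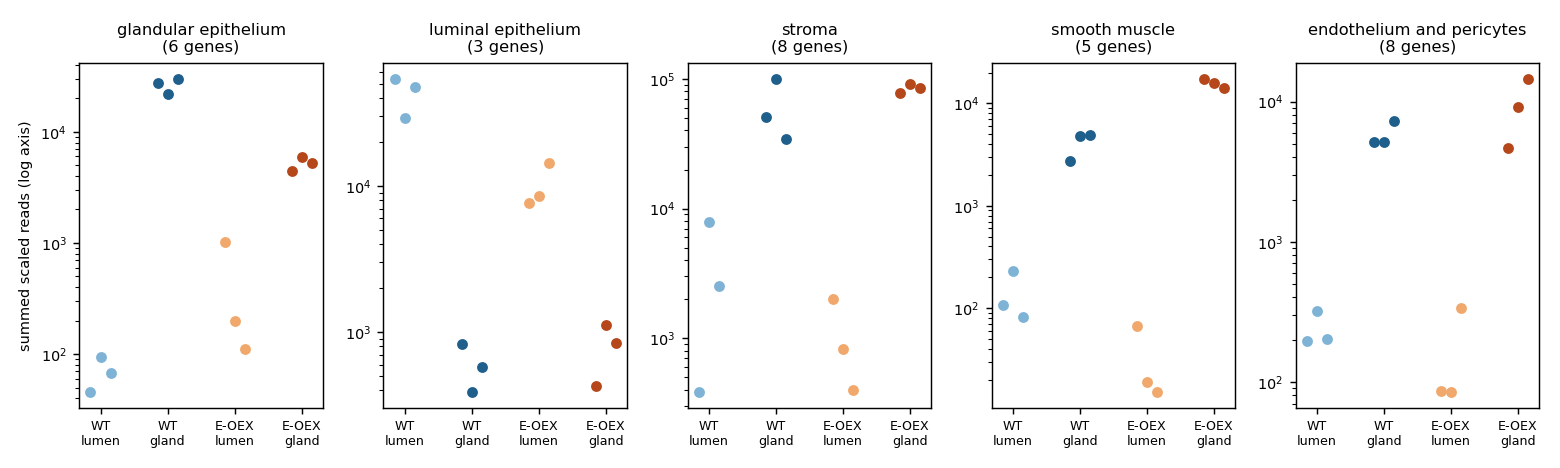
Summed scaled reads (log axis, scale differing by panel) of the tested members of 5 marker lists in each of the 12 libraries, by genotype and epithelium. The stroma sum of the wild-type lumen libraries runs from 384 to 7834, and smooth muscle lies between 14150 and 17496 in E-OEX gland against 2734 to 4878 in wild-type gland.

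Sparcl1 (ENSMUSG00000029309), a matrix glycoprotein, read 18.6, 111 and 59.2 scaled reads in wild-type lumen, 1835, 2479.7 and 1877 in wild-type gland, 5.48, 0 and 1.08 in E-OEX lumen and 3559, 4532 and 4813 in E-OEX gland. In scaled reads E-OEX lumen lay below wild-type lumen and E-OEX gland above wild-type gland, without overlap (log2 interaction 5.48, SE 0.95, limma adjusted p = 0.00313). Col6a4, a collagen VI chain, read 5.18, 22.5 and 8.94 scaled reads in wild-type lumen, 890.5, 1132 and 813 in wild-type gland, 0, 0 and 0 in E-OEX lumen and 6283, 1649.8 and 1875 in E-OEX gland. With E-OEX lumen at 0 the interaction was at least 3.86 on the log2 scale. Hoxa10, a homeobox factor that is on the stroma list and acts in the uterine stroma, read 15.5, 114 and 53.6 scaled reads in wild-type lumen, 614, 866 and 454 in wild-type gland, 7.30, 2.72 and 3.24 in E-OEX lumen and 1094, 1445 and 1291 in E-OEX gland. In scaled reads Hoxa10 was lower in E-OEX lumen and higher in E-OEX gland (log2 interaction 4.23, limma adjusted p = 0.00779). The smooth muscle genes Myl9 (4.89), Acta2 (4.54) and Cnn1 (3.93) had the same form, and Acta1, whose E-OEX lumen libraries were at the floor, had at least 4.41. On reads rescaled together, the gland effects of Sparcl1 (0.66), Hoxa10 (0.62), Myl9 (1.50) and Acta2 (1.72) did not pass in the 12-library fit. That of Cnn1 (1.95) did. With each epithelium fitted alone, the gland effects of Sparcl1, Myl9, Acta2 and Cnn1 passed and that of Hoxa10 did not. The part of the other cells in these results was not tested. With the 24 marker genes, 5 of them called, left out of the fit, 310 genes passed, all of them among the 315. Leaving out these genes does not take RNA of other cells out of the remaining values. That fit therefore cannot measure the part of the other cells.

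Immediate early and heat shock genes, which cells induce quickly on growth signals or stress, all had higher values in gland than in lumen in both genotypes. So did 1912 of all 2933 genes in each genotype. Of 9 tested 4 passed, Egr1, Nr4a1, Dnajb1 and Jun, each widened (44.4% against 2.35% of all genes), with a median of 2.28 for the 9. Egr1 (ENSMUSG00000038418), a transcription factor on both this and the receptivity list, read 685, 4929 and 2377 scaled reads in wild-type lumen, 5171, 10584 and 6767 in wild-type gland, 1201, 715 and 480.3 in E-OEX lumen and 29197, 26944 and 41395 in E-OEX gland. All E-OEX gland libraries lay above all wild-type ones and the lumen groups overlapped (log2 interaction 3.58, SE 0.82, limma adjusted p = 0.0149). Jun read 3714, 7824 and 7808 scaled reads in wild-type lumen, 16337, 17812 and 21200.4 in wild-type gland, 6002, 5903 and 4247 in E-OEX lumen and 74825, 69593 and 89648 in E-OEX gland. It was higher in E-OEX gland, and its lumen groups overlapped (log2 interaction 2.28, limma adjusted p = 0.00547). Jun did not pass with quantile normalization (adjusted p = 0.252), and Dnajb1 did not pass after TMM rescaling (adjusted p = 0.063) or without wild-type lumen replicate 3 or E-OEX gland replicate 3. Without wild-type lumen replicate 1, 8 of the 9 passed.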

How the data were processed

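RNA was sequenced from uterine luminal and glandular epithelium of mice at day 4, and groups were taken from the sample titles. The deposited values are a signal, read counts that the authors divided by 1 factor per library, as the values show: every library's values were whole multiples of 1 step (100% within 0.01 of a whole read), and reads were recovered by dividing by it. The submitters' processing notes name the GRCm38 (mm10) build; the aligner and counter are not given in the sources used here. Symbols come from GENCODE M21 (2770 of 2776 Ensembl identifiers) and promoter sequence from RefSeq. The interaction was tested with limma 3.58.1 (R 4.3.3, trend between mean and variance in eBayes, two-sided, Benjamini-Hochberg over 2933 genes, threshold 0.05) on log2(deposited value + 1), where 1 scaling factor common to both epithelia of a genotype drops out; this scale understates the change of low genes. Effects within an epithelium used recovered reads rescaled together by TMM (edgeR 4.0.16), so their difference departs slightly from the interaction. A group with 3 reads or fewer in every library was at the detection floor. Gene identities beyond the lists followed a rule: the 10 most positive and 10 most negative genes, the 5 largest of each form, and up to 6 passing members of each list, all for the Notch and gland lists. Genes passing in both epithelia, with Calb1, Wnt6, Wnt7a, Wnt7b, Actg2, Emcn, Rgs5, Cd68, Cdh1 and Cldn7, were chosen after their values were seen. A gene of the luminal list is not reported here. The members, lists and settings were chosen with earlier results of these data known. No 2 libraries of a group agreed within sampling noise (chi-square per degree of freedom of at least 22.3). The method was tested on simulated counts that had the same spread in all groups and were rescaled by TMM. That test does not cover the unequal spread of these groups or the deposited scale. Alternatives were other pseudocounts, filters, scalings, tests, a replicate block and leaving out each library.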

Additional observations from a re-analysis of the deposited data

Results flagged for a closer look

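A difference between the epithelia in the genotype effect, by the interaction test itself, marked each of the 89 named genes that passed, 51 with a positive and 38 with a negative log2 interaction; 64 of the 89 passed in all 12 fits that left out a library. With 3 libraries per group no single library was tested as an outlier. Values are on the log2(value + 1) scale, also where a group was at the detection floor.

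Among genes with a reversed gap and a positive value, the interaction was 8.23 for Efhd1, 8.24 for Tm4sf4, 7.49 for Nptx2, 6.56 for Tm4sf1, 6.41 for Ntrk3, 6.40 for Zbtb16, 6.15 for Myl3 and 6.04 for Tnnt2. It was 5.91 for Areg, 4.48 for Edn1, 3.78 for Plk2, 2.70 for Fzd5, 2.58 for Dll4, 3.30 for Hey2, 4.30 for Fmo2 and 4.17 for Klk1. Solute carriers with a reversed gap had 5.60 for Slc6a15, 3.99 for Slc16a12, 2.89 for Slc5a3, -3.98 for Slc40a1, -5.91 for Slc34a2 and -5.84 for Slco2a1. Other reversed genes with a negative value were Lgi2 (-7.49), Clca3a2 (-6.67), Gm43719 (-6.54), Sema3a (-5.73), Wnt4 (-5.36), Galnt17 (-5.27), Pigz (-5.16) and Fam20c (-4.64). Hsd17b14 had -4.28, with wild-type lumen at the detection floor. Gm13003 had -4.02 and Gm48832 -4.37, the last with 2 groups at the detection floor.

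Among genes with a narrowed gap that were higher in gland, the value was -6.54 for Ttr, -6.30 for Bpifb5, -5.98 for Aqp5, -5.90 for Tshr, -5.88 for Lipf, -5.26 for Cyp3a25, -4.93 for Lif and -4.83 for Fbln7. Next came Hs3st6 (-4.48), Cyp3a16 (-4.37), Cyp3a59 (-4.20), Krt83 (-4.19), Fbn2 (-4.12), Prss12 (-4.05), Camk4 (-3.88) and Il20 (-3.84). Smaller values were those of Wfdc15b (-3.76), Foxa2 (-3.36), Tmem218 (-3.26), Krt23 (-3.11), Heyl (-3.02), Cxcl15 (-2.99), Foxq1 (-2.91) and Il6st (-2.80). Lumen-higher genes with a narrowed gap were Cwh43 (6.56), Grid2ip (6.08), Atp2c2 (5.11), Serpina1e (4.10), Krt12 (3.78), Sox5 (3.43), Lpar3 (2.85), Lama3 (2.78), Wfdc2 (2.18), Krt19 (1.93) and Ptgs1 (1.87).

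A widened gap was found with values of 5.48 for Sparcl1, 5.02 for Col6a4, 4.89 for Myl9, 4.85 for Gm48898, 4.67 for Acta1, 4.54 for Acta2, 4.23 for Hoxa10 and 4.14 for Lama2. Cnn1 had 3.93, Nr4a1 3.87, Egr1 3.58, Cxcl12 3.47, Aqp1 3.42, Tgfb1i1 3.28, Foxl2os 3.17 and Hoxd10 3.04. The remaining genes were Myh11 (2.81), Cdh5 (2.67), Tgfbr3 (2.57), Dnajb1 (2.57) and Jun (2.28). Among all 89 genes, Myh11, Hoxd10, Krt23, Foxq1 and Slc16a12 each missed the threshold in 10 of the 12 fits that left out a library.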

How the results depend on the processing

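None of the 89 named genes that passed changed sign under any alternative with a value. Of 2927 values of named genes under the alternatives, 2678 kept their direction and their side of the threshold, 213 no longer passed, 16 newly passed and 20 had the other sign; 55 of the 89 named genes that passed did so under every alternative with a value. Those 20 values belong to 8 genes that did not pass, and none of the 20 passed. The log2 interaction was 0.40 for Prap1 with pseudocount 0.1 and 0.0251 for Cdkn1a with pseudocount 10. With quantile normalization it was 0.40 for Cdkn1a, 0.20 for Myc and -0.24 for Numbl. With edgeR it was 2.80 for Calca, 0.16 for Spink1 and -0.0525 for Numbl, and with DESeq2 1.80 for Calca. Without 1 library it ran from -0.75 to 0.28 for Cdkn1a, -1.09 to 0.25 for Dtx1, -0.44 to 0.29 for Lfng, -0.70 to 0.24 for Myc and -0.20 to 0.93 for Numbl. The 315 interaction genes numbered 501 with DESeq2 on recovered reads (282 shared) and 252 with edgeR (228 shared), and 179 to 449 without 1 library. The 171 positive genes became 335 with DESeq2 and 92 to 298 without 1 library, and the 144 negative genes 87 to 164. The 154 narrowed genes ranged from 83 to 216 without 1 library. The 69 widened genes became 111 with pseudocount 10, 41 with TMM, 181 with DESeq2, 28 without genes at the floor in a group, and 31 to 188 without 1 library. Genes passing in lumen (558) numbered 293 with 1 weight per group, 95 with each epithelium fitted alone, and 337 to 774 without 1 library. Genes passing in gland (257) numbered 445 with quantile normalization, 455 with DESeq2, 702 with weights, 604 fitted alone, and 125 to 316 without 1 library. Interaction genes passing in lumen alone (195) numbered 316 with DESeq2, 38 with separate fits, and 104 to 305 without 1 library. Those passing in gland alone (70) numbered 45 with pseudocount 0.1, 152 with pseudocount 10, 124 with quantile normalization, 38 with edgeR, 40 without floor genes, 120 with weights, 149 with separate fits, and 43 to 80 without 1 library. The cause of these shifts was not tested. Weights, separate fits and the omissions of unannotated, marker or floor genes were chosen after seeing the data. Between lumen and gland libraries with the same replicate number in their titles, correlations of deviations within a genotype ran from -0.13 to 0.16. With 3 libraries per group, these values cannot show whether such libraries came from the same animal. With a replicate block 314 genes passed, 290 of them among the 315. With a replicate block within genotype 302 passed, 271 of them among the 315. Low counts limit the 85 called genes with a group at the detection floor. Of the 315 genes 16 are unannotated entries, which may not stand for the same transcript in both genotypes. Without the unannotated entries 305 genes passed, 299 of them among the 315.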
